A study of Mus musculus with 8 samples.

Results

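Mitochondrial chaperones and proteases were examined in brain RNA of Pus1 mutant mice and of wild-type mice. The product of Pus1, pseudouridine synthase 1, modifies uridines of transfer RNAs in the cytosol and in mitochondria. The set held 10 genes of the 20887 that could be named on the array. They were listed by name for their role, but with earlier results of these data known. These are the chaperones Hspd1, Hspe1, Hspa9, Dnaja3 and Trap1 and the protease genes Lonp1, Clpp, Clpx, Yme1l1 and Afg3l2. They were read by 12 of the 55681 probes, 3 of them for Hspe1 and 1 for each other gene.

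The tested mice were 4 homozygous PUS1 mutants, set against 4 wild-type mice, all aged 14 to 16 weeks and backcrossed to C57BL/6J for 5 generations. The labels call the line a knockout and do not describe the allele, and none of the 10 genes lies on chromosome 5 with Pus1, where DNA of the donor strain is likeliest to remain. RNA came from a cross section of whole brain and was hybridised to 2-colour Agilent arrays. On each of the 4 arrays a mutant met the wild-type mouse of its own number and sex, and these are called pairs 1 to 4. The first 2 pairs were female and the others male. Mutant RNA was labelled with Cy5 in pairs 1 and 3 and with Cy3 in pairs 2 and 4.

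Most mitochondrial proteins are made in the cytosol, enter the organelle unfolded and must be folded inside it. The Hsp70 of the matrix (Hspa9, also called mortalin) pulls them in and passes some to the Hsp60 chamber (Hspd1), which is closed by its Hsp10 lid (Hspe1). Proteins that fail to fold are cut up by the matrix proteases LONP1 and CLPXP and by the inner-membrane proteases YME1L1 and AFG3L2. Genes of these chaperones and proteases are the classical readout of the mitochondrial unfolded protein response, while in mammalian tissue mitochondrial faults are also known to induce genes driven by the transcription factor ATF4.

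Promoter windows were available for 8 of the 10 genes, from 250 bases before to 50 bases after the gene start (RefSeq, GRCm38.p6), and Hspa9 and Afg3l2 are named only. Hspd1 and Hspe1 lie head to head, and the Hspe1 window shares 285 bases with the window of 1 of the 2 listed Hspd1 starts. The Hspe1 window is shown because this shared stretch holds matches to the heat shock element (GAANNTTC or TTCNNGAA), the letters bound by heat shock factors. The Clpp window is shown because it holds the only other such match among the 8 genes with a window. Capitals mark the matched letters.
Hspe1, chr1:55087898-55088197, plus strand: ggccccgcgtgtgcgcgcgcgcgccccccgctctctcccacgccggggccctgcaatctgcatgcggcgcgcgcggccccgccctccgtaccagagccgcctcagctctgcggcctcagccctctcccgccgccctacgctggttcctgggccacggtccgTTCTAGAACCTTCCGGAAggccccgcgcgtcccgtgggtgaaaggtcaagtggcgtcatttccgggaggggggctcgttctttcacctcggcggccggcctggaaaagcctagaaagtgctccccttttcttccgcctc
Clpp, chr17:56990014-56990313, plus strand: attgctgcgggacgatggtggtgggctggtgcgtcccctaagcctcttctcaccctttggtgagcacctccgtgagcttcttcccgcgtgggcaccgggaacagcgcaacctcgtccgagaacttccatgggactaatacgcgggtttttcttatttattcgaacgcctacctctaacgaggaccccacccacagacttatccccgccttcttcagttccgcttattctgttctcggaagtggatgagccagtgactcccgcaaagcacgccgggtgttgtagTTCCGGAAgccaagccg
In the Hspe1 window 3 overlapping matches formed a run of 18 bases, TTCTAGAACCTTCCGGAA, and began 89, 84 and 79 bases before the gene start. The match in the Clpp window, TTCCGGAA, began 33 bases after it. On both strands, 15.1% of all 32851 promoter windows of that length held such a match, so 3 of 8 genes with a match, 2 of them through the same stretch, is a description only. The C/EBP-ATF response element (TGATGNAA), the letters bound by heterodimers of ATF4, occurred in 3.97% of all windows and in 0 of the 8 genes' windows. The NRF1 element, bound by a regulator of nuclear genes for mitochondria, occurred in 4.60% of all windows and in those of Dnaja3 and Hspd1. The absence of these letters from a window says nothing about what the factor does elsewhere.

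The Pus1 probe checked the labels. Its normalized log2 level, the brightness of the spot in that mouse's channel, averaged 7.01 ± 0.18 in mutant brains and 9.60 ± 0.43 in wild-type brains (SD, n = 4 each), and its log2 ratio of mutant over wild type was -2.59 ± 0.38, with an adjusted p of 0.0364 in limma. The ratio stayed between -3.83 and -2.44 under 13 alternatives, and its adjusted p passed in 7 of them. All 12 probes of the set were well above background in all 8 samples and 0 were saturated. The dimmest was that of Yme1l1, with log2 levels of 7.90 to 8.76. Whether low brightness affected its ratio was not tested. The median Cy3 spot read 119.5 to 136 intensity units beside a local background of 47 to 58, and the median Cy5 spot 293 to 318 beside 144 to 148. Markers of neurons, astrocytes, oligodendrocytes and microglia were detected in all 8 samples, as the brain label requires. Markers of brain regions differed between the mice of a pair: the median log2 ratio of 10 excitatory-neuron markers was 0.28, -2.86, -0.14 and -0.28 in pairs 1 to 4, and that of 11 cerebellar markers was 0.63, 0.31, 0.76 and 1.91. Other lists also moved in single pairs. Striatal markers had medians of 1.44 in pair 1 and -1.28 in pair 4, and choroid plexus markers 1.52 in pair 2 and -1.12 in pair 3. Medians in pair 2 were 1.56 for oligodendrocyte markers and 0.80 for astrocyte markers. In a bulk section, more or less of a region, more or fewer cells of a type and more or less RNA per cell cannot be told apart.

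Across the set no gene passed the test of mutant against wild type, and Hspa9 was the member with the largest difference. At adjusted p under 0.05 in limma, 0 of the 10 genes were called, beside 0.00901% of the 33307 probes tested. The members' adjusted p ran from 0.720 for Hspa9 to 0.998 for Clpp. At an unadjusted p under 0.05, 1 member was higher in the mutant, beside 3.18% of all 15288 genes tested. Of the 10 genes 3 had a higher value in the mutant of all 4 pairs (Hspd1, Hspa9 and Clpx), beside 6.25% of all genes, and 1 had a lower value in all 4 (Afg3l2), beside 5.44%. The other 6 differed in sign between pairs. The mean ratio was above 0 in 8 of the 10 genes, beside 51.7% of all genes. When arrays were centred on their medians, Hspd1, Hspa9 and Clpx were below 0 in pair 2, as was the median of all probes.

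The differences were small and so was their spread. The median over the 10 genes of the mean log2 ratio was 0.11, against 0.01 over all genes tested, and by pair it was 0.02, 0.17, 0.14 and 0.13. With median centring the members' median was 0.0286, where that of all probes was -0.04, and it was 0.05 in the fit without pair 3. The median SD of a member over the 4 pairs was 0.17 on the log2 scale, against 0.30 over all genes. Apart from Hspa9, the 95% confidence intervals of the fold (mutant over wild type) reached no higher than 1.44 and no lower than 0.744. A change beyond these bounds lay outside the intervals of this fit, and smaller changes were not resolved with 4 pairs.

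**Figure D1:**
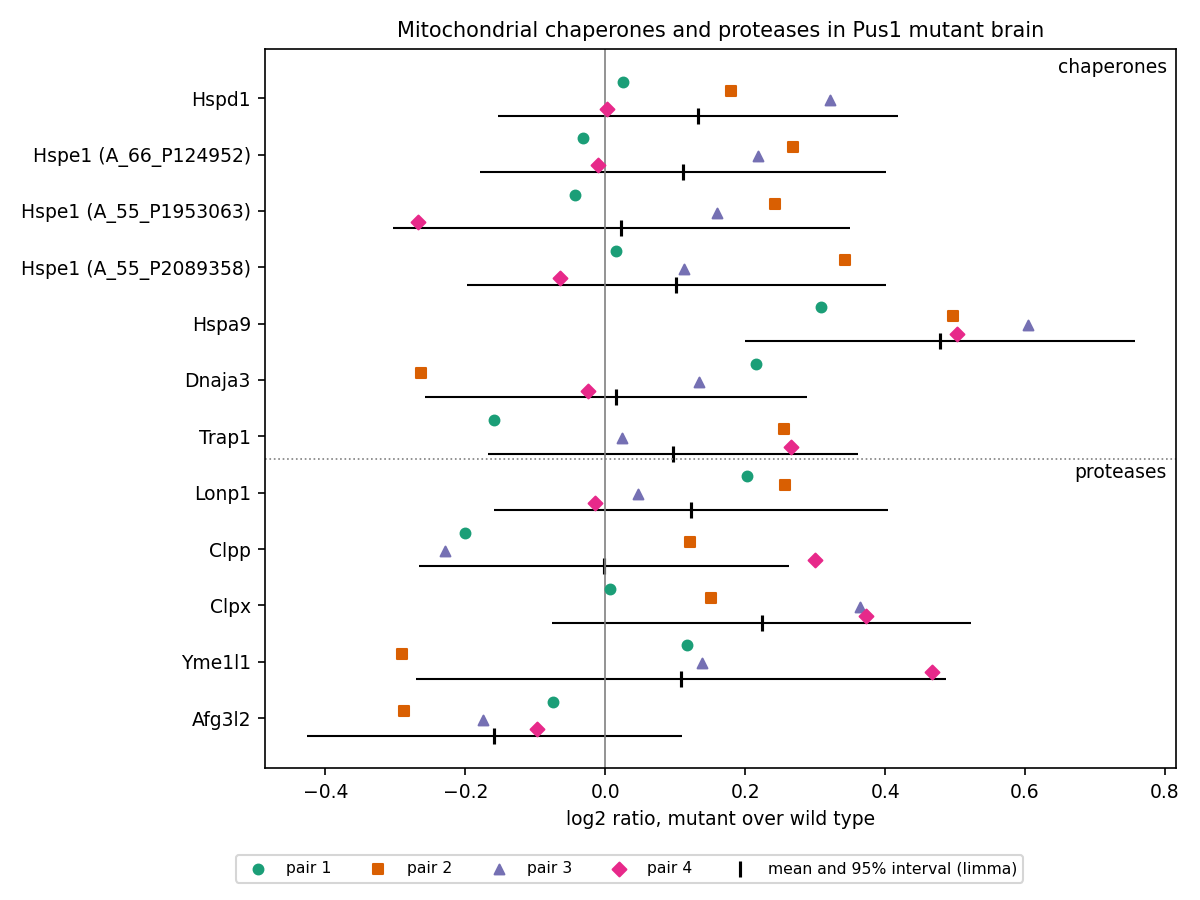
Log2 ratio of mutant over wild type for each of the 12 probes of the 10 genes, on the horizontal axis. Symbols are the 4 pairs, and the bar is the limma mean with its 95% confidence interval. Hspa9 lies at 0.31 to 0.60 in the 4 pairs, and its interval alone leaves out 0 before adjustment.

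Hspa9 is the matrix Hsp70, which works in import, folding and the assembly of iron-sulphur clusters. Its log2 level was 13.75, 13.46, 13.67 and 13.39 in mutants 1 to 4, against 13.44, 12.96, 13.07 and 12.89 in wild-type mice 1 to 4. The mutant was the higher of each pair, but the groups overlapped, because the highest wild-type mouse lay above the lowest mutant. Of the mutants 3 lay above all wild-type mice. By pair the log2 ratios were 0.31, 0.50, 0.60 and 0.50, with a mean of 0.48 ± 0.12 (SD, n = 4 pairs), a 1.39-fold difference with a 95% interval of 1.15 to 1.69. The limma test gave an unadjusted p of 0.00604 and an adjusted p of 0.720, so the difference did not pass.

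Within the set, Hspa9 had the highest ratio in each of the 4 pairs as reported, but in pair 4 this rested on the processing. There Yme1l1 lay above Hspa9 in the scanner software's own ratio (0.65 against 0.42) and the authors' deposited table (0.61 against 0.44). The same held with median centring, at 0.27 against 0.09. Set against the median of the other 9 members, the reported log2 ratio of Hspa9 was larger by 0.30, 0.35, 0.47 and 0.50 in the 4 pairs, a mean of 0.40 ± 0.10. The size of its mean ratio exceeded that of 95.7% of all genes tested, a comparison made after its value was seen. When arrays were centred on their medians in place of loess normalization, the median of all probes moved to 0.23, -0.31, 0.19 and -0.23 in the 4 pairs. The ratio of Hspa9 was then 0.75, -0.10, 0.89 and 0.09, above that median in all 4 pairs but no longer above 0 in pair 2. Of the cerebellar markers 8 of 11 were likewise higher in the mutant of all 4 pairs, beside 6.25% of all genes, and 0 of 11 passed the test. At an unadjusted p under 0.05 in limma 7 of the 11 were higher, beside 3.18% of all genes. All 11 means were above 0, with a median log2 ratio of 1.05. Their summed level, on the linear scale, ran from 27227 to 337898 in mutants and from 11706 to 230981 in wild-type mice, and 9 of the 11 were above background in all 8 samples. Their part in the Hspa9 difference was not tested.

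Hspd1 forms the Hsp60 folding chamber. Mutant log2 levels of Hspd1 were 14.50, 14.52, 14.59 and 14.53, against 14.47, 14.34, 14.27 and 14.52 in wild-type mice. The mutants lay close together and 3 of the 4 wild-type mice lay below all of them, while the wild-type mouse of pair 4 lay among them. By pair the log2 ratio of Hspd1 was 0.03, 0.18, 0.32 and 0.0021, with a mean of 0.13 ± 0.15 (SD, n = 4 pairs). The 95% interval of the fold was 0.899 to 1.34 and the adjusted p was 0.879. Pair 4 was below 0, at -0.05 in the scanner software's own ratio and -0.06 in the authors' deposited table. Its sign there rests on the processing. With median centring pairs 2 and 4 were -0.49 and -0.53, where the median of all probes was -0.31 and -0.23.

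Hspe1 forms the Hsp10 lid of that chamber and was read by 3 probes. The brightest of them, A_66_P124952, had log2 levels of 13.60, 13.89, 13.52 and 13.60 in mutants, against 13.63, 13.63, 13.30 and 13.61 in wild-type mice. Mutant 2 was above all the others and wild-type mouse 3 below all the others, and the remaining 6 mice lay between 13.52 and 13.63. The log2 ratios were -0.03, 0.27, 0.22 and -0.0095, with a mean of 0.11 ± 0.15 (SD, n = 4 pairs), a 95% interval of the fold from 0.883 to 1.32 and an adjusted p of 0.901. The other probes averaged 0.02 ± 0.23 (A_55_P1953063) and 0.10 ± 0.18 (A_55_P2089358). All 3 probes were positive in pairs 2 and 3, and in pairs 1 and 4 they ran from -0.27 to 0.015.

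The chamber and its lid, which share the promoter stretch shown above, differed little from each other. The log2 ratio of Hspe1 minus that of Hspd1 was -0.06, 0.09, -0.10 and -0.01 in the 4 pairs, with a mean of -0.02 ± 0.08. For both genes the ratio was larger in pairs 2 and 3 than in pairs 1 and 4. RefSeq lists 5 pseudogenes of Hspd1 and 7 pseudogenes or related sequences of Hspe1, and 1 of Hspa9. Probe sequences were not used here, so whether a probe also binds their transcripts was not tested.

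Dnaja3 is the J-domain partner that stimulates the matrix Hsp70. Its log2 level was 12.96, 12.77, 12.99 and 12.85 in mutants, against 12.74, 13.03, 12.85 and 12.88 in wild-type mice, and the groups overlapped throughout. The log2 ratios had both signs, at 0.22, -0.26, 0.13 and -0.02, with a mean of 0.02 ± 0.21 (SD, n = 4 pairs), a 95% interval of the fold from 0.837 to 1.22 and an adjusted p of 0.989. The signs followed the dye of the mutant, positive in pairs 1 and 3 and negative in pairs 2 and 4. Dye orientation and a difference between these pairs cannot be told apart for Dnaja3. In pair 2, where Dnaja3 was lowest, the ratio of Hspa9 was 0.50.

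Trap1 is the Hsp90 of mitochondria. Trap1 had log2 levels of 10.59, 11.29, 10.91 and 11.14 in mutants, against 10.75, 11.03, 10.88 and 10.88 in wild-type mice. Mutants 2 and 4 lay above all wild-type mice and mutant 1 below all of them. The log2 ratios were -0.16, 0.26, 0.02 and 0.27, with a mean of 0.10 ± 0.20 (SD, n = 4 pairs), a 95% interval of the fold from 0.890 to 1.28 and an adjusted p of 0.906.

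**Figure D2:**
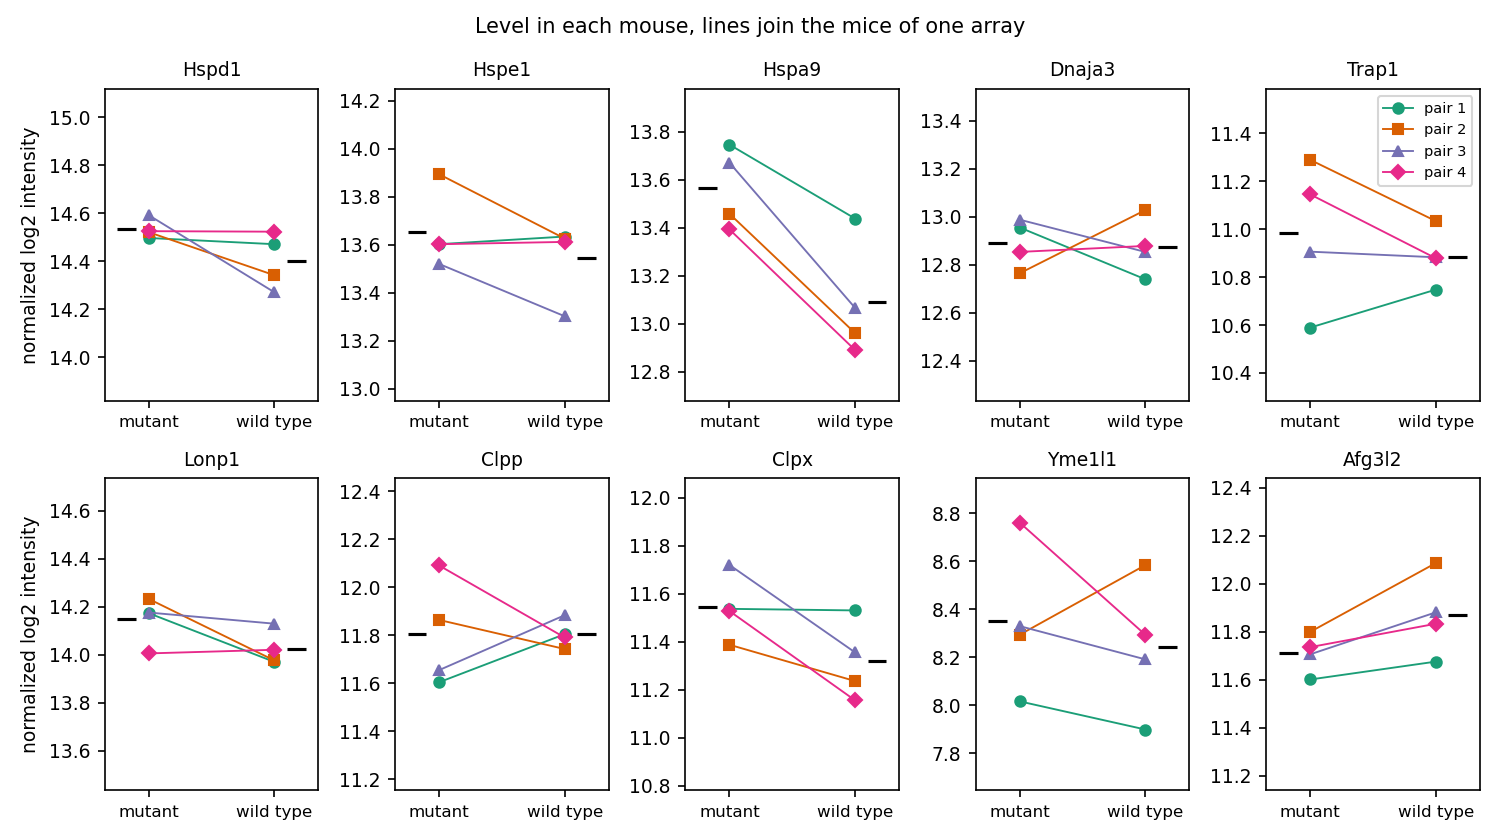
Normalized log2 level of each of the 10 genes in the 8 mice, by the brightest probe, with mutants on the left and wild-type mice on the right of each panel and a line joining the mice of a pair. Black bars are group means, and each panel spans the same number of log2 units around its own centre, because levels of different probes are not comparable. For 0 of the 10 genes are the 2 groups apart, and the Hspa9 lines all slope down to the wild-type side.

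Lonp1 is an ATP-driven protease of the matrix that removes oxidised and misfolded proteins and binds mitochondrial DNA. Lonp1 had log2 levels of 14.17, 14.23, 14.18 and 14.01 in mutants, against 13.97, 13.98, 14.13 and 14.02 in wild-type mice. Of the mutants 3 lay above all wild-type mice, and mutant 4 lay among the wild-type values. By pair Lonp1 had log2 ratios of 0.20, 0.26, 0.05 and -0.02, with a mean of 0.12 ± 0.13 (SD, n = 4 pairs), a 95% interval of the fold from 0.896 to 1.32 and an adjusted p of 0.884.

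Clpx and Clpp encode the partners of another matrix protease: CLPX unfolds the protein and feeds it into the CLPP barrel, which cuts it. The log2 level of Clpx was 11.54, 11.39, 11.72 and 11.53 in mutants, against 11.53, 11.24, 11.36 and 11.16 in wild-type mice. Of the wild-type mice 3 lay below all mutants, and the wild-type mouse of pair 1 lay among them. The Clpx log2 ratios were 0.0066, 0.15, 0.36 and 0.37, with a mean of 0.22 ± 0.18 (SD, n = 4 pairs), a 95% interval of the fold from 0.949 to 1.44 and an adjusted p of 0.830. Without background correction pair 1 was -0.0075, so the sign of that pair rests on the processing. With median centring pair 2 was -0.37, where the median of all probes was -0.31.

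For Clpp the log2 level was 11.60, 11.86, 11.65 and 12.09 in mutants, against 11.80, 11.74, 11.88 and 11.79 in wild-type mice. The mutants were the more spread group, with 2 of them below all wild-type mice and 1 above. The log2 ratios were -0.20, 0.12, -0.23 and 0.30, with a mean of -0.0020 ± 0.26 (SD, n = 4 pairs), a 95% interval of the fold from 0.831 to 1.20 and an adjusted p of 0.998. The Clpp ratio was negative in pairs 1 and 3 and positive in pairs 2 and 4, the same division as the dye of the mutant, so dye orientation and a difference between these pairs cannot be told apart for it. Clpx was above Clpp by 0.21, 0.03, 0.59 and 0.07 in log2 ratio, a mean of 0.23 ± 0.26 that is smaller than its spread.

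The inner-membrane proteases differed in the sign of their mean. Yme1l1 faces the space between the membranes and trims, among others, the fusion protein OPA1. Its log2 level was 8.02, 8.29, 8.33 and 8.76 in mutants, against 7.90, 8.58, 8.19 and 8.29 in wild-type mice. Mutant 4 was above all the others, and the other mutants lay within the wild-type range. The log2 ratios were 0.12, -0.29, 0.14 and 0.47, with a mean of 0.11 ± 0.31 (SD, n = 4 pairs), a 95% interval of the log2 ratio from -0.27 to 0.49 and an adjusted p of 0.926. Without pair 4 the plain mean of the other 3 pairs was -0.01, and the fit with a dye term, which weights these pairs unequally, gave -0.08.

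Afg3l2 faces the matrix, where it degrades inner-membrane proteins and processes others. For Afg3l2 the log2 level was 11.60, 11.80, 11.71 and 11.74 in mutants, against 11.68, 12.09, 11.88 and 11.83 in wild-type mice. The mutant was the lower of each pair, and 3 of the 4 wild-type mice lay above all mutants. Log2 ratios of -0.07, -0.29, -0.18 and -0.10 gave a mean of -0.16 ± 0.10 (SD, n = 4 pairs), a 95% interval of the fold from 0.744 to 1.08 and an adjusted p of 0.854. With median centring pairs 1 and 3 were positive, at 0.32 and 0.09, where the median of all probes was also positive. The log2 ratio of Yme1l1 minus that of Afg3l2 was 0.19, -0.0034, 0.31 and 0.56, a mean of 0.27 ± 0.24. These comparisons between members were chosen after their values were seen.

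The members' ratios were read by sex as well. In a fit with a sex term in place of the dye term, the difference between the sexes had an adjusted p of at least 0.9998 for each of the 12 probes. The mean log2 ratio of Hspa9 was 0.40 in the 2 female pairs and 0.55 in the 2 male pairs, and that of Clpx was 0.08 in female and 0.37 in male pairs. Yme1l1 had the largest difference, at -0.09 in female and 0.30 in male pairs, and Lonp1 went the other way, at 0.23 in female and 0.02 in male pairs. With 2 pairs a sex, differences of that size were not resolved.

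The proteins that work directly with the matrix Hsp70 were grouped by role after values were seen. They are the nucleotide exchange factors Grpel1 and Grpel2, the stabilising factor Dnlz, the iron-sulphur co-chaperone Hscb and the import-motor parts Timm44, Pam16, Dnajc15 and Dnajc19. Of these 8 genes 5 had a mean log2 ratio above 0 and 0 passed the test or had an unadjusted p under 0.05 in limma. Their means ran from -0.21 for Dnlz to 0.14 for Dnajc19, with a median of 0.02 and a lowest adjusted p of 0.853. Each of the 8 means was smaller in size than that of Hspa9.

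The wider genes of protein handling in mitochondria lay near 0. Of 13 other mitochondrial chaperones 0 passed the test, their median log2 ratio was 0.00 (0.0044), and 1 was higher in all 4 pairs (Dnajc19, 0.14 ± 0.09) while 2 were lower in all 4 (Hscb, -0.13 ± 0.12, and Dnajc28, -0.16 ± 0.13). Of all genes 6.25% were higher and 5.44% lower in all 4 pairs. The brightest of these other chaperones, Pam16 and Dnajc15, averaged 0.04 ± 0.06 and 0.08 ± 0.28. Of 15 other mitochondrial proteases 0 passed, the median was -0.01, and 0 had the same sign in all 4 pairs. Spg7, which forms mixed complexes with AFG3L2, averaged -0.15 ± 0.21, and the intermembrane-space protease Htra2 averaged -0.01 ± 0.12.

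The prohibitin scaffold, which holds the inner-membrane proteases, had 0 of 5 genes past the test and a median of -0.03, with Stoml2 at -0.03 ± 0.32 and Phb at -0.01 ± 0.25. Of 27 genes of protein import 0 passed and the median was -0.03. The highest were Timm8a1, a carrier chaperone of the intermembrane space, at 0.34 ± 0.28 and Gfer, an oxidase of that space, at 0.19 ± 0.29, and the lowest were Dnlz at -0.21 ± 0.34 and Tomm34 at -0.17 ± 0.24. Import genes higher in all 4 pairs numbered 2 of 27, Timm8a1 and Tomm20, beside 6.25% of all genes.

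Chaperones of other compartments gave similar values. Of 26 cytosolic chaperones tested 0 passed, the median was 0.04 and 3 were higher in all 4 pairs, beside 6.25% of all genes. The highest means were those of Bag3, at 0.36 ± 1.13, and Dnaja2, at 0.21 ± 0.13, and the lowest were those of Hspb8, at -0.42 ± 1.30, and Hsp90ab1, at -0.20 ± 0.17. Of 14 chaperones of the endoplasmic reticulum 0 passed, the median was 0.05 and 0 had the same sign in all 4 pairs. There Dnajc3 averaged 0.12 ± 0.16 and Sdf2l1 0.12 ± 0.32, against -0.06 ± 0.29 for Pdia3 and -0.05 ± 0.26 for Hsp90b1. Hspb8 and Bag3, partners in clearing misfolded protein, differed widely between pairs, from -1.51 to 1.36 and from -0.48 to 2.01, so their means carry little precision.

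Among regulators of the mitochondrial stress response, Atf5, Atf4 and Ddit3 had higher levels in the mutant of each pair. Of 14 such genes 0 passed the test, 3 had an unadjusted p under 0.05 and were higher in all 4 pairs, and the list's median was -0.04. Of all genes 3.18% were higher at that unadjusted p in limma, and 6.25% were higher in all 4 pairs. Atf5, a factor proposed to drive the mitochondrial response in mammals, averaged 0.73 ± 0.19 and had an adjusted p of 0.452 in limma. Atf4 averaged 0.72 ± 0.68, with pairs 1 and 3 at 1.20 and 1.40 and pairs 2 and 4 at 0.05 and 0.22, again the division by dye. Ddit3, which encodes the stress factor CHOP, had ratios of 0.48, 0.37, 0.46 and 0.49, a mean of 0.45 ± 0.05 with an adjusted p of 0.720. For each of these 3 genes all mutant levels lay above all wild-type levels, which held for 0.903% of all genes and for 0 of the 10 chaperones and proteases. The reverse order, all mutants below all wild-type mice, held for 0.249% of all genes and again for 0 of the 10. Jun was lower in all 4 pairs, at -0.24 ± 0.26 and Ubl5, among the brightest of the list, averaged -0.17 ± 0.31.

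Genes driven by ATF4 had larger ratios than the chaperones and proteases. Of 26 ATF4 targets tested 1 passed the test, Trib3, a pseudokinase, at 2.01 ± 0.53 with an adjusted p of 0.0364 in limma. Its ratio lay between 1.96 and 2.47 under 14 alternatives and passed in 7 of them. Pairs 1 and 3 were at 2.46 and 2.47 and pairs 2 and 4 at 1.67 and 1.46, the division by dye. With no dye term the adjusted p of Trib3 in limma was 0.223. At an unadjusted p under 0.05 in limma, 19 of the 26 were higher, beside 1 of the 10 chaperones and proteases and 3.18% of all genes. The median log2 ratio of the ATF4 targets was 0.52, 0.56, 0.75 and 0.54 in pairs 1 to 4, where the median of the chaperones and proteases was 0.02, 0.17, 0.14 and 0.13. Chac1, a glutathione-degrading enzyme, followed at 1.54 ± 0.08, and the lowest were the amino acid transporters Slc7a5 at -0.13 ± 0.46 and Slc7a11 at -0.0066 ± 0.49. The mean ratio of Hspa9, 0.48, lay below the ATF4 target median of 0.58 and above those of all other members. These medians come from the same arrays and the lists were chosen with earlier results known, so the difference between the lists carries no test.

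**Figure D3:**
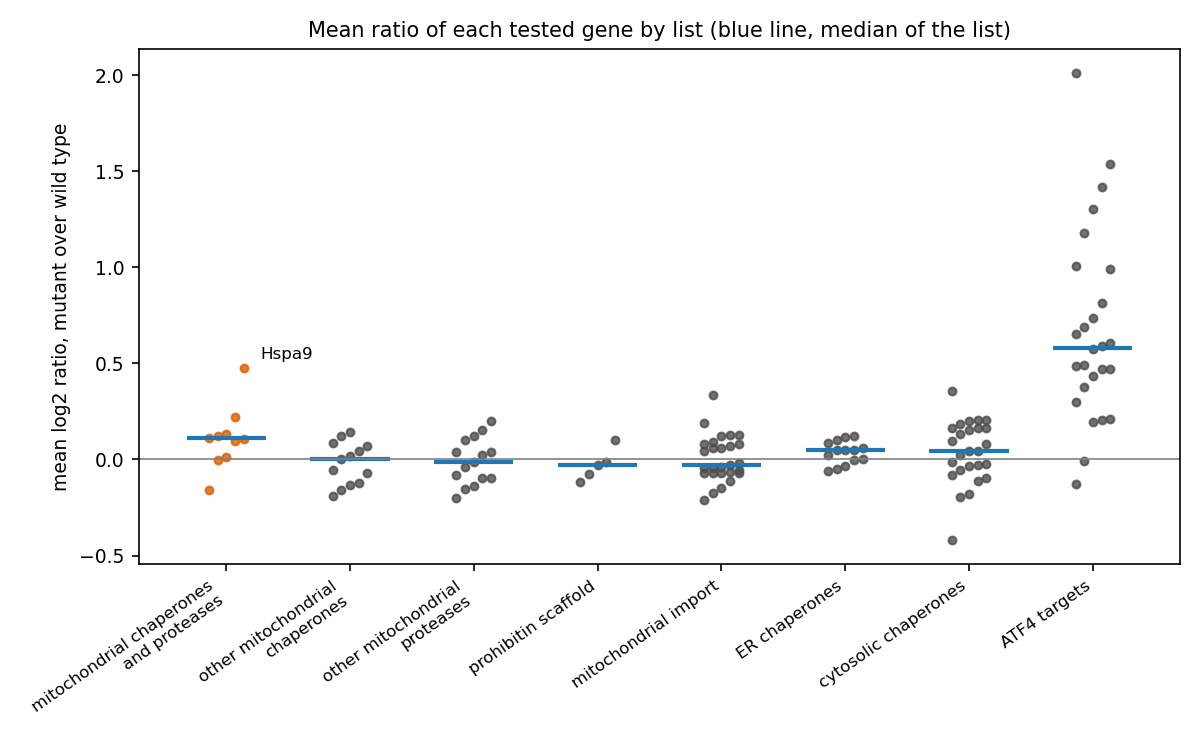
Mean log2 ratio of mutant over wild type for each tested gene of the 10 chaperones and proteases and of the other gene lists, 1 point per gene, with the median of each list as a bar. The chaperones and proteases centre on 0.11 and the ATF4 targets on 0.58, while the other lists of protein handling centre between -0.03 and 0.05.

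The genes whose level followed Hspd1 and Lonp1 most closely over the 8 samples were found by Pearson's r after the mean of each dye was removed, as a description over 15287 other genes. For Hspd1 these were Tmem59, Arxes2 and Ppid, with r of 0.971, 0.964 and 0.952. Of the other members Hspa9 ranked 537 with r = 0.60, its partner Hspe1 849 with r = 0.54 and Clpx 929 with r = 0.52, while Dnaja3 (r = -0.46) and Afg3l2 (r = -0.68) varied the opposite way. For Lonp1 they were Timm50, Eif3c and Pgm5, with r of 0.966, 0.961 and 0.960. For Lonp1 the members ran from r = 0.54 for Hspa9 to r = -0.47 for Clpp. The points share arrays, so the samples are not independent. The 3 genes named first for each were picked as the highest r of 15287, so these r carry no test.

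**Figure D4:**
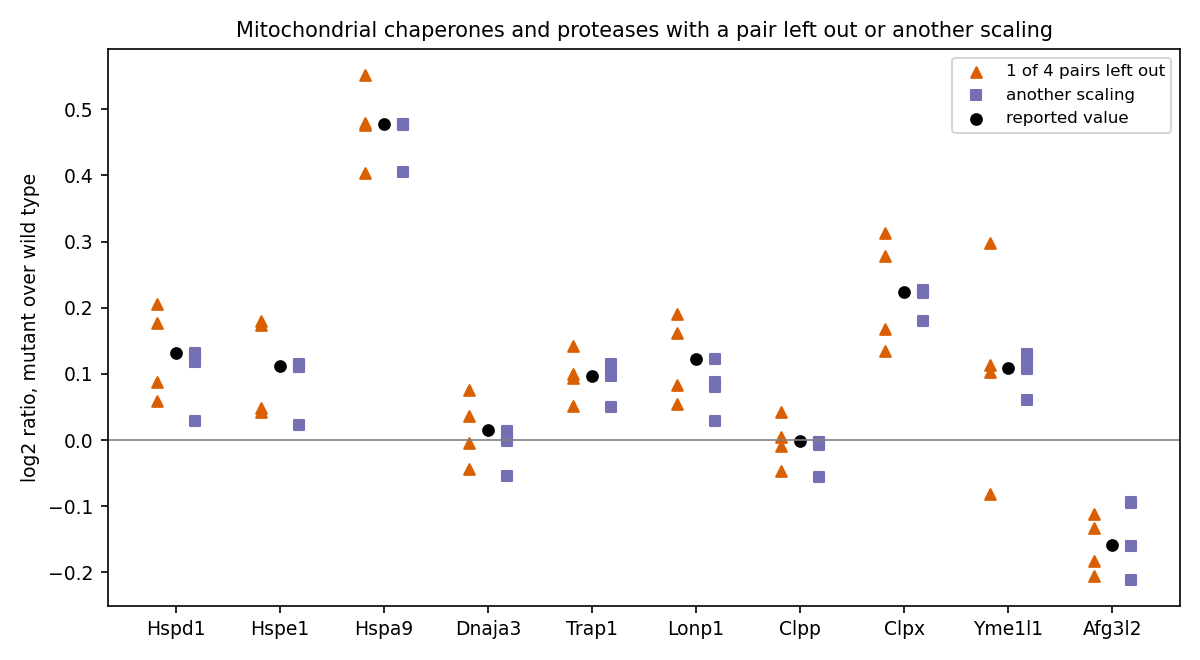
Log2 ratio of mutant over wild type (vertical axis) of the 10 genes, by the brightest probe, as reported (circles), with 1 of the 4 pairs left out of the fit with a dye term (triangles) and under another scaling or background (squares). Hspa9 lies between 0.40 and 0.55 in all settings drawn, while Dnaja3, Clpp and Yme1l1 have values on both sides of 0.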

How the data were processed

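Brain RNA of 4 mutant and 4 wild-type mice was read on 4 arrays, each with a mutant and a wild type of the same number. Per the file headers, spots were quantified by version 10.7.3.1 of Agilent Feature Extraction. The deposited intensity values are uncorrected median brightness and local background of each spot, and the processed intensity is background-subtracted and dye-normalized, per the file headers. Their deposited log10 ratio divides processed Cy5 by processed Cy3, and spot marks (well above background, saturated, outlier) hold 0 or 1. The authors' table of log2 values gives no scale; its columns had medians of -0.0271, 0.0199, -0.0142 and -0.00238 in mutants and -0.0496, 0.0364, -0.00529 and 0.0345 in wild type, and followed the quantile-normalized processed signal minus each probe's median with r of at least 0.999. That comparison covered 16451 probes, and beyond them its scale was not checked.

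Intensities were corrected with normexp (offset 50) and ratios normalized within arrays by loess, with control spots at weight 0 and outlier spots left out. Levels per mouse followed Aquantile normalization. Probes well above background in at least 3 of 4 samples of either genotype were tested (33307 probes; 20044 named through RefSeq accessions, 15288 genes). Limma 3.58.1 in R 4.3.3, with tables read by data.table (1.17.8), fitted mutant over wild type with a dye term, leaving 2 residual and 3.65 prior degrees of freedom, with Benjamini-Hochberg adjustment over all tested probes. The dye term passed for 0 probes, and its lowest adjusted p for a member was 0.435. The number of arrays limits the precision. The fit was tested on simulated data.

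The pair is a block because each array holds both mice of a number. Deviations of same-numbered mice correlated with r = 0.791, 0.315, 0.493 and 0.740. The highest r of each mutant with a wild-type mouse of another number was 0.379, 0.427, 0.388 and 0.690. For number 2 the same-numbered mouse was thus not the closest. The labels call the mice individuals. Slide and scan were common to all arrays, and no sample was left out.

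The members, the gene lists and the comparisons were chosen with earlier results of these data known. The brightest tested probe stands for its gene. All members are named; from the other mitochondrial chaperones and proteases, prohibitins and stress regulators, genes of the same sign in all pairs and the 2 brightest; from other pathway lists, the 2 highest and 2 lowest. Alternatives covered scaling, background, filter, dye, sex, block and left-out pairs.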

Additional observations from a re-analysis of the deposited data

Results flagged for a closer look

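Of 36 groups of 4 values checked (24 of levels and 12 of pair ratios), 1 held a value far from the others: the Hspe1 probe A_66_P124952 read 13.30 in wild-type mouse 3, while the other 3 wild-type mice read 13.61 to 13.63 (normalized log2 level). Its gap to the nearest was 0.933 of the group's range, above Dixon's 95% critical value for 4 samples. Chance alone marks about 1 group in 20 in this way. Without pair 3 the plain mean log2 ratio of that probe was 0.08, against 0.11 with all 4 pairs.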

How the results depend on the processing

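In limma, 0 of the 10 chaperone and protease genes passed the test in each of the 14 alternatives run, with a lowest adjusted p of 0.130 (Hspa9 without pair 4). Over all probes 3 passed, and this count was 0 with the scanner software's ratio, the authors' table, or sex fitted in place of dye. In separate-channel fits it was 1 with no replicate block and 25 with arrays as random blocks, and the pairing changed no member's call. Leaving out 1 pair gave counts of 0 to 933, with 0 without pair 1 or pair 3, 10 without pair 2 and 933 without pair 4. The members' median of 0.11 was 0.0286 with median centring and 0.05 to 0.13 with 1 pair left out. Of 169 values of member probes under the alternatives, 158 kept their direction and 11 turned. Many of the 158 could not turn. With another filter, no dye term, a sex term or separate channels, the ratio equals the reported one by construction. Dnaja3 (0.02) was -0.0017 with the scanner software's ratio, -0.0543 with median centring and -0.0441 to 0.0751 with a pair left out. Hspe1 probe A_55_P1953063 (0.02) was -0.0268 with median centring and -0.10 to 0.15 with a pair left out, and A_55_P2089358 (0.10) was -7.6e-05 to 0.20. Clpp (-0.0020) was -0.0467 to 0.0427 and Yme1l1 (0.11) was -0.0811 to 0.30 with a pair left out. Values with a pair left out come from the fit with a dye term, which on 3 pairs gives the pair of the lone orientation more weight. As plain means of 3 pairs, computed after seeing the data, Clpp was -0.10 to 0.07 and differed in sign from its fit without pair 1 and without pair 2, and Yme1l1 was -0.01 to 0.24. Dnaja3 also differed in sign from its fit, without pair 3 (plain mean -0.02, fit 0.04) and without pair 4 (0.03 and -0.04). So did Hspe1 probe A_55_P2089358 without pair 2 (0.02 and -7.6e-05). Pus1 lost its call in 6 of 13 alternatives and Trib3 in 7 of 14, each keeping its direction; these also were tabulated after seeing the data. The cause of these moves was not tested. Hspa9 ranged from 0.40 to 0.55, with unadjusted p from 0.000706 to 0.0547 and adjusted p up to 1.00. With 4 pairs and 2 residual degrees of freedom, changes inside the intervals of the report were not resolved.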
